A study of Rattus norvegicus with 3 samples.

Results

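The neutrophil lineage of injured rat spinal cord was described in 172 cells, out of 5815 cells that passed the cell filter in 3 single-cell RNA libraries. Members were chosen by their measured values: a cell was taken where S100a8 and S100a9 together gave at least 100 of every 10000 of its UMIs (unique molecular identifiers, 1 per captured RNA molecule), where at least 1 of Csf3r, Cxcr2, Mmp8, Mmp9, Il1r2, Ngp, Camp and Ltf had at least 1 UMI, and where C1qa, C1qb and C1qc together stayed under 10 per 10000 UMIs. Before that, cells with fewer than 200 detected genes or with more than 20% mitochondrial UMIs had been removed. The libraries came from wild-type rats aged 6 to 8 weeks that received G-HD, MPG-HD or PBS at the site of injury, where G-HD and MPG-HD are hydrogel depots by the series title and PBS is the saline control. Each treatment used 5 animals and gave 1 library from a 5-mm piece of cord, after enzymatic digestion and lysis of red cells. How the animals were pooled is not stated. With 1 library per treatment no test was possible, so values carry exact 95% intervals for counting error only, which leave out variation among animals and among preparations.

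Neutrophils are short-lived granulocytes that leave the blood for injured tissue within hours. They are built in the bone marrow in a fixed order. Promyelocytes fill primary granules with myeloperoxidase, serine proteases and defensins, myelocytes and metamyelocytes then make the proteins of secondary granules (Camp, Ngp, Ltf, Lcn2), and band cells add the gelatinase Mmp9 of tertiary granules. Division stops after the myelocyte, and the mature cell carries chemokine, cytokine and adhesion receptors and, once activated, transcribes Il1b and chemokines.

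The label of the cells was checked against markers of other cell types. S100a8 (ENSRNOG00000011557) and S100a9 (ENSRNOG00000011483), the subunits of calprotectin, took 35.5% of the summed UMIs of the G-HD members, 18.3% of those of the MPG-HD members and 33.1% of those of the PBS members, and up to 61.0% of a single cell. Dendritic (5 genes) and astrocyte (3 genes) markers were at 0 in the members of all 3 libraries, as were Cx3cr1, Ms4a1, Ccr3, Prg2 and Epx, which mark microglia, B cells and eosinophils. Other genes of these lists were not all at 0. Siglec5, of the eosinophil list, had 11 UMIs in 9 G-HD members, 2 UMIs in 2 MPG-HD members and 7 UMIs in 5 PBS members, and Cd79b, of the B cell list, had 1 UMI in G-HD. Of the phagocyte list of 6 genes, which holds the C1q genes that the rule limits, a UMI was in 64 of 121 G-HD members, 9 of 26 MPG-HD members and 6 of 25 PBS members, at 1.63, 1.84 and 0.826 UMIs per 10000, against 77.0, 90.6 and 98.1 in the other filtered cells of these libraries. Of the monocyte list, of which Ccr2 was not matched, a UMI was in 11 of 121 G-HD members, 1 of 26 MPG-HD members and 0 of 25 PBS members. This made 0.318, 0.167 and 0 UMIs per 10000, against 3.73, 3.59 and 4.53 in the other filtered cells. At least 3 UMIs of a marker list of another type were held by 19 G-HD, 3 MPG-HD and 1 PBS members. Of these, 14 G-HD members and 1 PBS member were called only or partly for Nkg7, a gene of cytotoxic lymphocytes, with Cd3e, Cd3d, Cd3g and Cd2 at 0, and 13 of those 15 cells were rich in defensins. The deepest G-HD member (31375 UMIs) held 2614 UMIs of Apoe and 33 of Cldn5, and the deepest MPG-HD member (9878 UMIs, 16.5% of all UMIs of that library's members) held 360 of Hbb. A further MPG-HD member, of 3254 UMIs, held 14 UMIs of T cell genes, 7 of them of Cd3g. For some genes named below most UMIs lay in such cells, and this is said beside those that were looked up.

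The members just inside the S100 limit had 107, 181 and 182 UMIs of S100a8 and S100a9 per 10000, and the cells just outside it had 69.4, 25.5 and 25. On the C1q limit the nearest members had 9.24, 9.16 and 9.03 per 10000, and the nearest cells outside had 10.3, 10.5 and 10.8. Among cells past the S100 limit, 6 in G-HD, 1 in MPG-HD and 1 in PBS were left out for C1q, and 7, 1 and 0 for lack of any granulocyte gene. Ltf (lactoferrin) had 0 UMIs in all members, so it contributed nothing to the choice. The other granulocyte genes were found in unequal parts of the members. Il1r2, the decoy receptor for interleukin 1, was in 87 of 121 members in G-HD, 24 of 26 in MPG-HD and 18 of 25 in PBS. Camp was in 85 in G-HD, 9 in MPG-HD and 10 in PBS, and Ngp in 47, 1 and 4. Mmp8 was in 73, 14 and 8, Mmp9 in 41, 6 and 4, Csf3r in 34, 8 and 15, and Cxcr2 in 15, 6 and 6, each for G-HD, MPG-HD and PBS. In 20 G-HD, 6 MPG-HD and 5 PBS members a single one of these genes met the rule. Members were shallow cells: their median depth was 3693 UMIs in G-HD, 1806.5 UMIs in MPG-HD and 1714 UMIs in PBS, against 9674, 10565 and 10410.5 UMIs in the other filtered cells of these libraries. A UMI of these genes was also found in cells that should lack them. S100a8 had one in 24.0% of C1q-rich phagocytes of G-HD, in 4.45% of those of MPG-HD and in 6.46% of those of PBS, at 25.6, 4.25 and 5.89 CPM, with median depths of 11924, 12057 and 11715.5 UMIs. Thinned to 1000 UMIs per cell these shares were 3.83%, 0.117% and 0.699%. CPM here means the UMIs of a gene scaled to a total of 1000000 UMIs summed over a set of cells. Of 8 barcodes shared by the G-HD and PBS libraries 1 belonged to a member, of 5 shared by MPG-HD and PBS 0 did, and of 8 shared by MPG-HD and G-HD 2 did.

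The lineage made up a larger part of the G-HD library than of the others. It was 121 of 2347 filtered cells in G-HD (5.16%, 4.30% to 6.13%), 26 of 2091 in MPG-HD (1.24%, 0.814% to 1.82%) and 25 of 1377 in PBS (1.82%, 1.18% to 2.67%). The share in G-HD was 2.84 times (1.83 to 4.56) that in PBS, and the share in MPG-HD was 0.241 times (0.151 to 0.371) that in G-HD. The MPG-HD share was 0.685 times the PBS share, with an interval (0.380 to 1.24) that includes 1. Since the rule reads the members' own genes, these are counts of cells that meet it. Over 10 other settings of the rule and the filter the ratios ranged from 2.39 to 2.96, from 0.219 to 0.253 and from 0.553 to 0.713.

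**Figure D1:**
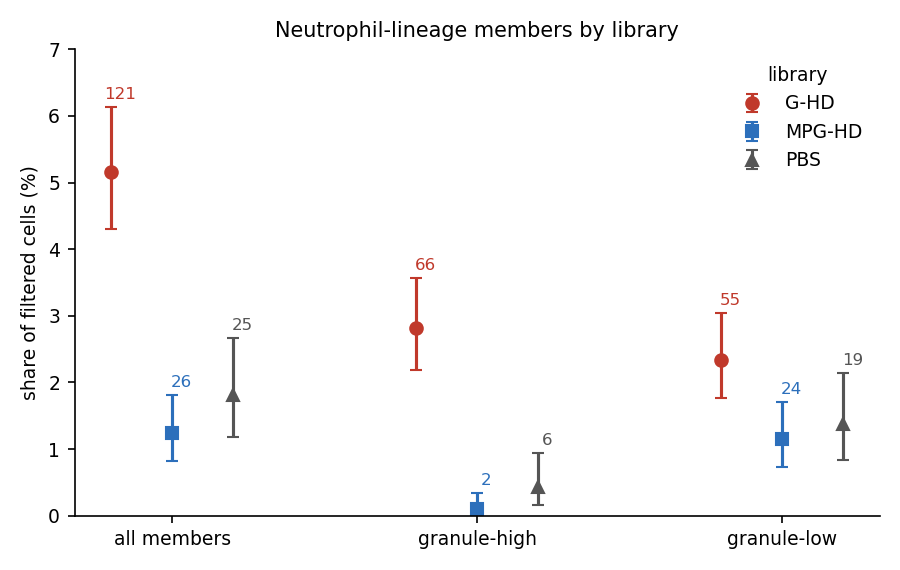
Share of filtered cells (%, y axis) that were neutrophil-lineage members, and that were members above or below the cut on Camp, Ngp and Ltf, in the G-HD, MPG-HD and PBS libraries; points are shares of 1 library each and bars are exact 95% binomial intervals. The G-HD share of 5.16% stands above the 1.24% of MPG-HD and the 1.82% of PBS, and most of that gap lies in the members above the cut.

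Outside the rule, the genes that set the members furthest apart from the other 5643 filtered cells were proteins of granules and secretions. As the rule chose the cells, these ratios are a description. By the lower bound of the ratio the first were the alpha-defensins RatNP-3b, Np4, Defa5 and Defa11, antimicrobial peptides of primary granules, and Retnlg, a secreted resistin-like protein known in rodent neutrophils. RatNP-3b (ENSRNOG00000038135) had 25663 CPM in the G-HD members, 0 in the MPG-HD members and 15467 in the PBS members, but its UMIs lay in 18 of the 172 cells. The defensin genes are close copies of each other, so the counting may have split reads among them, and their sum is safer than any of them. Retnlg (ENSRNOG00000001943) was found in 77 members and had 1953 CPM in G-HD, 2556 CPM in MPG-HD and 1419 CPM in PBS. Pglyrp1, a peptidoglycan-binding protein of granules, was more general: it had a UMI in 150 members, at 4000.2 CPM in G-HD, 2623 CPM in MPG-HD and 4379.9 CPM in PBS, and was 2637-fold (2151 to 3268) higher in members than in other cells.

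Other leading genes fell into recognisable roles. Orm1 (an acute phase glycoprotein), Hp (haptoglobin), Lcn2 (the siderophore-binding lipocalin), Olfm4 and Cd177 are contents or membrane proteins of granules, and their ratios of members over other cells ran from 158 for Lcn2 to 4651 for Orm1. Chi3l1, a chitinase-like protein, was the most widespread, with a UMI in 168 of 172 members and 1675 CPM in G-HD, 2740.3 CPM in MPG-HD and 2066 CPM in PBS. Padi4, the histone-citrullinating enzyme known for its part in neutrophil extracellular traps, was in 69 members, and Fpr2, a formyl peptide receptor, also in 69. Nos2, the inducible nitric oxide synthase, was in 58 members, and Ifit1bl, an interferon-induced gene, in 84. Chit1, Ifitm6, Stfa2 and Retn completed the 20, in 46, 39, 25 and 12 members. The myeloperoxidase gene Mpo was nearly absent, with 25 UMIs in 4 G-HD members and 0 UMIs in MPG-HD and PBS members, and Prtn3 and Prss57 were at 0. Over all 5444 genes compared, 5.69% were at least 2-fold higher in members and 65.1% at least 2-fold lower, with a median log2 ratio of -1.54.

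Within the lineage, cells could be laid out by their granule genes. The 4 ranges were cut after the values had been seen: a defensin range (defensins at least 100 per 10000 UMIs), then a Camp-Ngp range (Camp and Ngp at least 100), then a Retnlg-Mmp8 range (Retnlg and Mmp8 at least 10), and the remaining members. They held 14, 49, 49 and 60 cells. Depth went along with them, with medians of 9585.5, 5498, 1964 and 1388 UMIs and of 1352.5, 875, 569 and 512.5 genes per cell. S100a8 and S100a9 took a median of 36.4%, 46.0%, 25.5% and 7.81% of a cell's UMIs in these ranges. CPM across ranges therefore compare shares of UMIs and not UMIs per cell, and other genes can gain CPM where S100 genes take less. The ranges are cuts on gene levels and not cell types: 1 member lay within 2-fold of the first cut, 10 of the second and 26 of the third. The levels of the defensins, Camp, Ngp, Retnlg and Mmp8 across ranges follow from the cuts. All other genes are described below as CPM of UMIs summed over a range, in the order defensin, Camp-Ngp, Retnlg-Mmp8, remaining; as 13 of 14 cells of the first range and 43 of 49 of the second came from G-HD, range and library are partly the same.

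**Figure D2:**
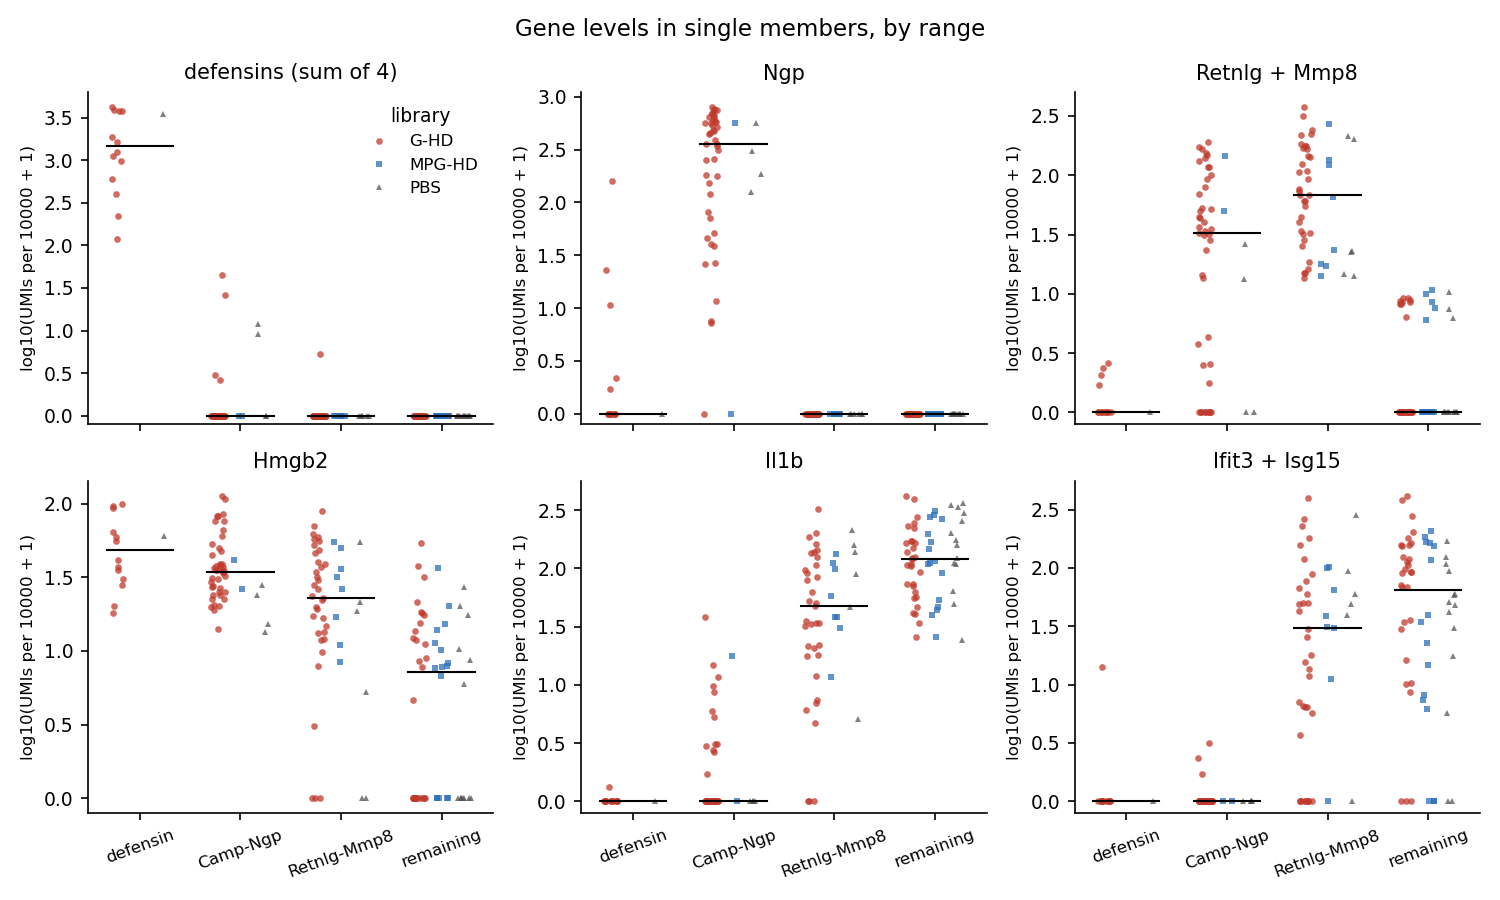
Each point is 1 member, coloured by library (G-HD, MPG-HD, PBS), with its UMIs of the named genes per 10000 on a log10 scale after adding 1 (y axis), against the 4 ranges in order (x axis). Defensins are at 0 in nearly all cells outside the first range. Ngp has a UMI in 5 of 14 cells of the defensin range and in 47 of 49 of the Camp-Ngp range. Il1b goes from 6.24 CPM in the defensin range to 13986 CPM in the remaining members.

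Some genes of the promyelocyte and of division were highest in the defensin range. Mpo (156 CPM, 4 of 14 cells) and Ms4a3 (112 CPM, 8 of 14 cells), a gene of granulocyte and monocyte progenitors, had 0 UMIs in all other members. Elane, neutrophil elastase and also of primary granules, did not follow them, at 37.5, 13.5, 66.3 and 66.2 CPM from 6, 4, 8 and 6 UMIs. The primary granule list of 8 genes had medians per cell of 32.6, 0, 32.4 and 40.3 UMIs per 10000 in the 4 ranges, most of them of Srgn, described below. Nkg7 stood at 1111, 64.3, 0 and 22.1 CPM, so the lymphocyte marker named above followed the defensins. Top2a, a topoisomerase of dividing cells, had 237, 77.8, 8.29 and 0 CPM, and Mki67, the Ki-67 antigen, had 131, 71.1, 16.6 and 11 CPM. In all, 17 members had a UMI of Mki67 or Top2a, of which 15 were above the cut on Camp, Ngp and Ltf described below. Hmgb2, a chromatin protein of dividing cells, declined over all 4 ranges, at 4901, 4338, 2936 and 838 CPM. All 17 members with at least 10 UMIs of defensins also had at least 10 of Camp, whereas 5 of them had at least 10 of Ngp and 0 had at least 3 of Il1b.

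The Camp-Ngp range carried the contents of secondary granules. Lcn2 had 1005, 4924, 58.1 and 0 CPM in the 4 ranges. Hp had 381, 5472, 1576 and 265 CPM, and Cd177, a surface protein that partners a granule protease, had 156, 944, 58.1 and 0 CPM. Cebpe, the transcription factor needed for secondary granules, was found in 14 of 14 and 39 of 49 cells of the first ranges, in 0 of 49 of the third and in 2 of 60 of the last, at 399.6, 575, 0 and 22.1 CPM. Cybb, the membrane subunit of the NADPH oxidase that makes superoxide, went with it at 587, 629, 24.9 and 0 CPM, and so did Orm1 at 581, 649.7, 24.9 and 0 CPM. Anxa1 (annexin A1, a protein of gelatinase granules) and Pglyrp1 peaked there but persisted, at 7261, 14666, 2729 and 2195 CPM for Anxa1 and at 1723, 6149, 3384 and 1235 CPM for Pglyrp1. Fpr2 was at its highest there too, with 131, 639.6, 199 and 11 CPM. All 47 members with at least 10 UMIs of Ngp had at least 10 of Camp, and 4 of them had at least 3 of Il1b.

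Several receptors and secreted proteins had a higher CPM in the Retnlg-Mmp8 range and the remaining members than in the first ranges. Mmp9, the gelatinase, was not among them and was highest in the Camp-Ngp range, at 0, 359, 216 and 55.2 CPM. Il1r2 had 0, 349, 1692 and 1897 CPM. Fcgr2a, a receptor for antibody-coated targets, had 106, 376, 2123 and 2294 CPM. Csf3r, the G-CSF receptor, and Cxcr2, the receptor for Cxcl1 and Cxcl2, were sparse everywhere, with a UMI in 32 of 60 and 12 of 60 of the remaining members, and these genes with Il1r2 were used by the rule. Clec4d, a C-type lectin of myeloid cells, had 0, 3.38, 522 and 739 CPM. Among the leading genes, Chi3l1 had 437, 1709, 2986 and 3022 CPM, and Nos2 and Stfa2 had no UMI in the defensin range, at 0, 20.3, 389.8 and 430.2 CPM for Nos2 and at 0, 0, 771 and 552 CPM for Stfa2. Lyz2, lysozyme, was present throughout, at 16251, 18517, 31606 and 32242 CPM.

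Cytokine genes separated the ends of the layout. Il1b had 6.24, 189.5, 5963 and 13986 CPM, and a UMI of it was in 1 of 14, 14 of 49, 46 of 49 and 60 of 60 cells. The 1 UMI of Il1b in the first range was in the deepest G-HD member. Cxcl2, a chemokine that recruits neutrophils, had 219, 98.1, 2886 and 6298 CPM, and Ccl6 had 6.24, 13.5, 7846 and 10435 CPM. Of the 2 cells with Cxcl2 in the first range, the deepest G-HD member had 10.8 UMIs per 10000 and the other 1.16. Most Cxcl2 UMIs of that range were thus in this 1 cell. Ccl3 had 169, 20.3, 249 and 1357 CPM, with its 27 UMIs of the first range all in the deepest G-HD member, the cell with 2614 UMIs of Apoe. Bcl2a1, an anti-apoptotic gene, had 231, 125, 738 and 1655 CPM, and Sod2, the mitochondrial superoxide dismutase, had 18.7, 338, 2819.8 and 2559 CPM. The inhibitor of NF-kB Nfkbia and the immediate early gene Junb followed at 399.6, 227, 2139.7 and 7181 CPM and at 375, 139, 3541 and 7567 CPM. Slpi, which inhibits neutrophil elastase, had 37.5, 501, 4885 and 9056 CPM, and Fth1, the ferritin heavy chain, had 3621, 934, 18287 and 30422 CPM.

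Interferon-induced genes had the same sides. Ifit3 had 87.4, 6.77, 2588 and 5405 CPM, Isg15 had 169, 3.38, 2571 and 2702 CPM and Ifit1bl had 0, 0, 1717 and 1335 CPM. The 14 UMIs of Ifit3 and the 27 of Isg15 in the defensin range were all in the deepest G-HD member. Of 107 members with at least 3 UMIs of Il1b, 83 had a UMI of Ifit3. B2m and RT1-A2, the light and a heavy chain of class I, were in every range and higher in CPM in the last ones, at 812, 748, 3268 and 3651 CPM for B2m and 425, 365, 1866 and 2934 CPM for RT1-A2. B2m had 130, 221, 394 and 331 UMIs in the 14, 49, 49 and 60 cells, so its UMIs per cell did not follow that order. Ifitm2 ran the other way among the genes of the interferon list, at 1279.8, 1865, 498 and 397 CPM. Srgn (serglycin, the proteoglycan that packs granule proteases) was low in the Camp-Ngp range alone of the 4, at 5875, 132, 2770.0 and 4192 CPM. Of the values of genes in ranges that were computed again without members holding markers of other types or with every member given the same weight, 378 kept to their counting interval and 142 did not.

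**Figure D3:**
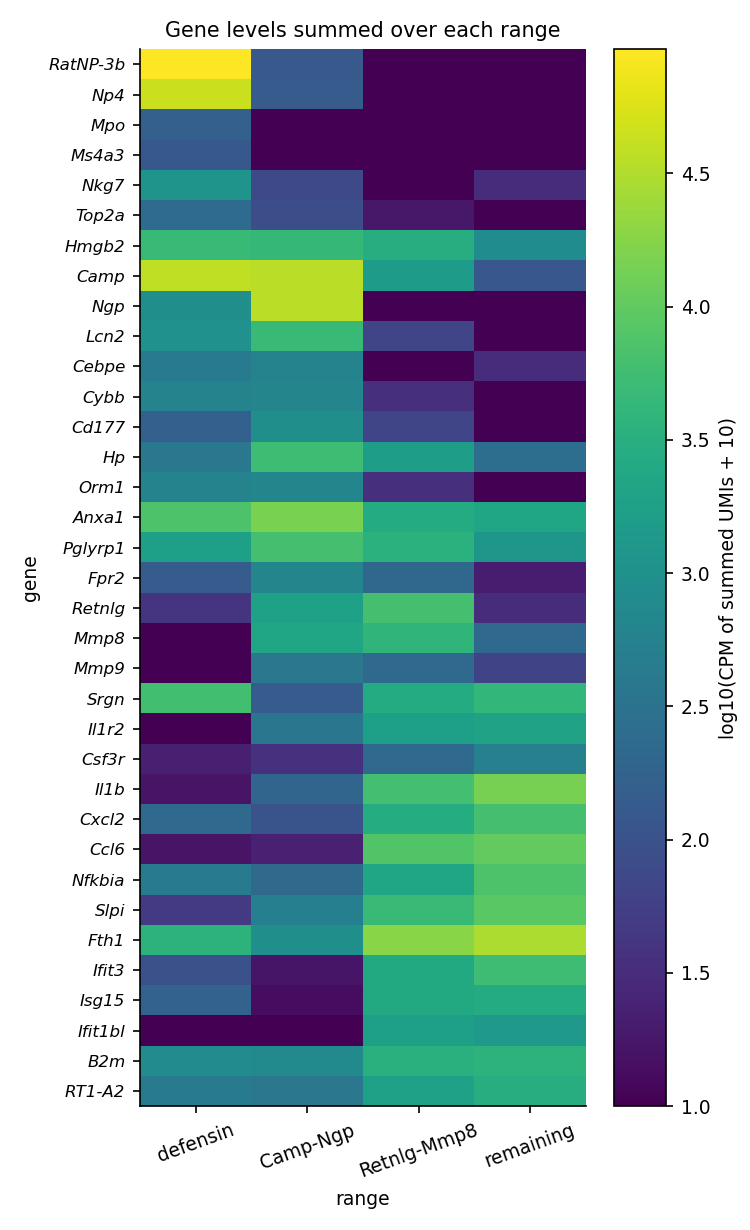
Heat map of 35 genes (rows) in the 4 ranges (columns), coloured by the log10 of CPM of summed UMIs plus 10, over members of all 3 libraries. The defensins, Mpo, Ms4a3, Top2a and Hmgb2 are brightest in the left column, Ngp, Lcn2 and Hp in the Camp-Ngp column, and Il1b, chemokine and interferon-induced genes on the right, where Ifit3 reached 5405 CPM against 6.77 CPM in the Camp-Ngp range.

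As genes of the first ranges and interferon-induced genes lay at opposite ends of the layout, their promoters were searched for a motif known for each, chosen after the values were seen: TTGCNNAA, the core of the C/EBP site, and TTTC followed by any 2 bases and TTTC again, the core of the interferon-stimulated response element. Both strands were read over the 250 bases before the gene start in RefSeq's GRCr8 promoters. The motifs can share bases only on opposite strands. TTGCNNAA was in 9.22% of all 33469 promoters, in 7 of 16 leading genes with a promoter, in 5 of 10 secondary granule genes and in 0 of 26 interferon genes. These sets do not match the ranges. Stfa2, among the 7, had 0 UMIs in the defensin and Camp-Ngp ranges, and Lyz2, among the 5, was highest in the remaining members. The repeated TTTC was in 3.41% of all promoters, in 1 of the 16, in 0 of the 10 and in 19 of the 26. Promoters are shown for a few genes, 3 of the defensin genes that lead the list, that of Ngp and that of Ifit3, 5′ to 3′ on the gene's strand, with the motif in capitals. A match describes the letters and shows neither binding nor a cause.
RatNP-3b, chr16:77248978-77249227, minus strand: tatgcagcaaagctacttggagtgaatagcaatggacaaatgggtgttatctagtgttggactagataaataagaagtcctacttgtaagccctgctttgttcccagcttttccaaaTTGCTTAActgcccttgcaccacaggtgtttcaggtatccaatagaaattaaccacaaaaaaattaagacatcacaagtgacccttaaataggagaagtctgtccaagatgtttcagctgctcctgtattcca
Np4, chr16:77199643-77199892, minus strand: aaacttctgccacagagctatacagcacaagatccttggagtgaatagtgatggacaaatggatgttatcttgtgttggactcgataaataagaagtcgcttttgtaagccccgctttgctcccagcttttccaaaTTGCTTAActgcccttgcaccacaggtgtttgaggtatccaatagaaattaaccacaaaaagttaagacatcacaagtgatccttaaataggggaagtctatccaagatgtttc
Defa11, chr16:77238042-77238291, minus strand: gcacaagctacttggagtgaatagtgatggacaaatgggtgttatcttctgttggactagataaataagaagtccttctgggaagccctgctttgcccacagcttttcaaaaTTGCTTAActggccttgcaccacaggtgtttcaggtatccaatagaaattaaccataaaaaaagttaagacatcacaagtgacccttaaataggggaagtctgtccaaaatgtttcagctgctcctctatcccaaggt
Ngp, chr8:119272355-119272604, plus strand: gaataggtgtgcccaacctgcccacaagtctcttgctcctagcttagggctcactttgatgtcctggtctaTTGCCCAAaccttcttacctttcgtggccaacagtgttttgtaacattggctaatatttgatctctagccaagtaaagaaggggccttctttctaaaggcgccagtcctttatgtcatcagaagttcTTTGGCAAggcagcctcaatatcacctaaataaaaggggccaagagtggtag
Ifit3, chr1:241527076-241527325, plus strand: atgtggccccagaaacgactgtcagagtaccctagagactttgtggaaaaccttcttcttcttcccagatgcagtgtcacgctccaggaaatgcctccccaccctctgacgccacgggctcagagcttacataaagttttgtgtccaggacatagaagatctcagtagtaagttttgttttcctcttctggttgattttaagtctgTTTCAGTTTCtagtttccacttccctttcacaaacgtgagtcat
The 3 defensin promoters hold the same letters, TTGCTTAA, that start 133, 114 and 138 bases before the gene start of RatNP-3b, Np4 and Defa11. They are close copies of each other: RatNP-3b and Defa11 matched at 89.0% of aligned columns, RatNP-3b and Np4 at 78.8%, and Np4 and Defa11 at 75.2%, so they are not separate instances of the motif. Ngp has a match on each strand, 179 and 52 bases before its start, and Ifit3 has TTTCAGTTTC at 44 bases.

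The libraries differed in which ranges they held. The defensin range had 13 of 121 members in G-HD (10.7%), 0 of 26 in MPG-HD, where 3 cells would be 11.5% and the exact upper limit is 13.2%, and 1 of 25 in PBS (4%). The Camp-Ngp range had 35.5% of the members in G-HD (27.0% to 44.8%), 7.69% in MPG-HD (0.946% to 25.1%) and 16% in PBS (4.54% to 36.1%). The Retnlg-Mmp8 range was alike in share, at 28.9% in G-HD, 30.8% in MPG-HD and 24% in PBS, with intervals that overlap widely. The remaining members were 24.8% in G-HD (17.4% to 33.5%), 61.5% in MPG-HD (40.6% to 79.8%) and 56% in PBS (34.9% to 75.6%). Intervals of G-HD and MPG-HD did not overlap in the Camp-Ngp range and among the remaining members, and those of G-HD and PBS did not overlap among the remaining members. They count cells of 1 library per treatment, and the rule also used Camp, Ngp and Mmp8. The shares are thus a description of these libraries and not a test of treatments.

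**Figure D4:**
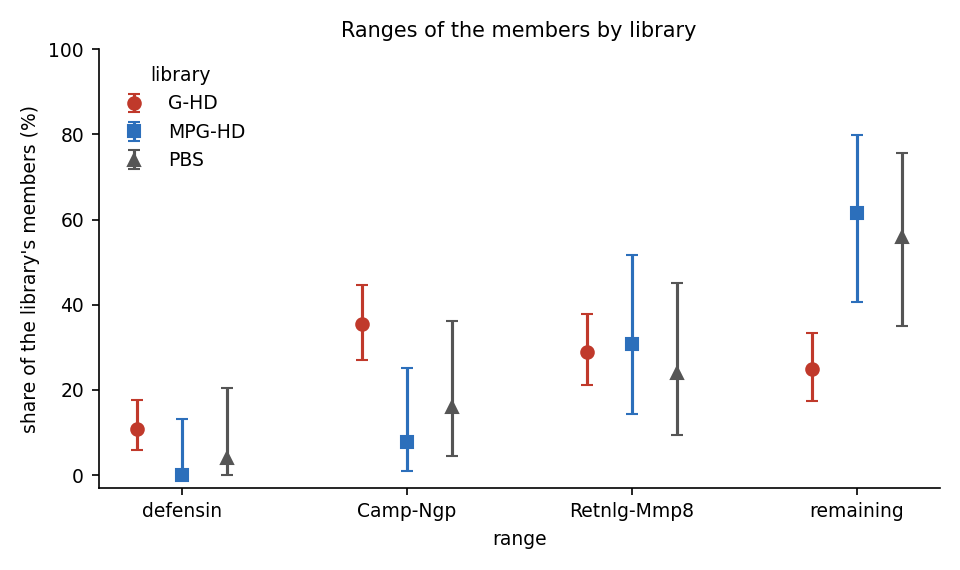
Share of each library's members (%, y axis) in the 4 ranges (x axis) for G-HD, MPG-HD and PBS, with exact 95% binomial intervals as bars. Of the G-HD members 35.5% lie in the Camp-Ngp range and 24.8% in the remaining range, whereas 61.5% of MPG-HD and 56% of PBS members lie in the remaining range.

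A single cut on Camp, Ngp and Ltf at 20 per 10000 UMIs gave the same order, but it is not a separate reading. Camp and Ngp also cut the Camp-Ngp range, and the membership rule uses all 3 genes. All 14 cells of the defensin range, all 49 of the Camp-Ngp range and 11 of the Retnlg-Mmp8 range were above the cut. The members at or above the cut, called granule-high, were 66 of 121 in G-HD (54.5%, 45.2% to 63.6%), 2 of 26 in MPG-HD (7.69%, 0.946% to 25.1%) and 6 of 25 in PBS (24%, 9.36% to 45.1%). The nearest members above the cut had 20.6, 21.8 and 28.3 per 10000 and the nearest below had 18.4, 17.5 and 14.9. The MPG-HD share depended on the cut: at 10 per 10000 it was 6 of 26 members (23.1%), close to the 24% of PBS at that cut, and at 50 it was 7.69%. As a share of all filtered cells, granule-high members were 2.81% in G-HD, 0.0956% in MPG-HD and 0.436% in PBS, so G-HD was 6.45 times (2.81 to 18.2) PBS and MPG-HD 0.0340 times (0.00403 to 0.128) G-HD. MPG-HD was 0.220 times PBS, from 2 and 6 cells, with an interval of 0.0217 to 1.23. Granule-low members were 2.34% in G-HD, 1.15% in MPG-HD and 1.38% in PBS, with 1.70 times (0.992 to 3.03) for G-HD over PBS, 0.832 times (0.437 to 1.61) for MPG-HD over PBS and 0.490 times (0.290 to 0.805) for MPG-HD over G-HD.

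Within the G-HD library the 2 kinds of member differed in granule, cytokine, class I and interferon genes. Granule-high cells were deeper, with a median of 5535 UMIs against 1476 UMIs in granule-low cells. Of 760 genes compared, 13.4% were at least 2-fold higher and 30.8% at least 2-fold lower in granule-high cells, with a median log2 ratio of -0.35. Against that median the secondary granule list, which holds the genes of the cut, stood at 4.44, with 8 of 9 measured genes at least 2-fold higher. The interferon list stood at -4.12 (6 of 9 at least 2-fold lower), the interleukin 1 list at -3.14 (3 of 4), the NF-kB and immediate early list at -2.91 (6 of 7), the class I list at -2.42 (5 of 5), the chemokine and cytokine list at -2.34 (5 of 6) and the receptor list at -2.15 (7 of 11). Of 18 matched cell cycle genes 7 were measured, with a median of 1.02 and 4 of the 7 at least 2-fold higher.

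Set beside PBS, the G-HD members as a whole had more RNA of cell division and less of inflammatory genes. Genes were compared where the smaller sum was expected to hold at least 10 UMIs, which left 572, and 8.04% of these were at least 2-fold higher and 5.77% at least 2-fold lower; the median log2 ratio of all was 0.0049. Of 18 matched cell cycle genes 4 were measured, and all 4 were at least 2-fold higher, with a median log2 ratio of 1.66. G-HD members held 534469 UMIs and PBS members 72605, so a sparse gene could reach the minimum through G-HD alone. That count is therefore a description. All matched genes of the list summed to 56.0 UMIs per 10000 in G-HD and 24.5 in PBS. The cell cycle list was not higher in G-HD alone. For MPG-HD over PBS, 2 of 3 measured genes were at least 2-fold higher (median log2 ratio 1.33). Hmgb2 had 4156 CPM in G-HD, 2323 CPM in MPG-HD and 1887 CPM in PBS, a ratio of G-HD over PBS of 2.2 (1.85 to 2.64). Among granule-low members Hmgb2 was highest in MPG-HD, at 1572 CPM in G-HD, 2153 CPM in MPG-HD and 728 CPM in PBS. Ube2c, a ubiquitin-conjugating enzyme of mitosis, had 174 CPM in G-HD, 0 CPM in MPG-HD and 13.8 CPM in PBS, with a ratio of 12.6 (2.21 to 504) that rests on 1 UMI in PBS. Fam111a and Cks2, genes of DNA replication and of cyclin-dependent kinase, had 2 UMIs each in PBS, with G-HD over PBS ratios of 7.4 (2.00 to 61.9) and 6.86 (1.85 to 57.4). Mmp8, the neutrophil collagenase, had 1869 CPM in G-HD, 1487 CPM in MPG-HD and 730.0 CPM in PBS, a ratio of 2.56 (1.94 to 3.44) for G-HD over PBS, but the rule used Mmp8 to choose members, so this is a description.

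Among the genes lower in G-HD members were those that were highest in the last ranges. Il1b, interleukin 1 beta, had 1979.5 CPM in G-HD, 8254 CPM in MPG-HD and 6776 CPM in PBS, and G-HD was 0.292 (0.262 to 0.326) times PBS. For Cxcl2 the levels were 988 CPM in G-HD, 4328 CPM in MPG-HD and 2699.5 CPM in PBS and the ratio was 0.366 (0.31 to 0.433). Ccl3, a chemokine for monocytes, had 148 CPM in G-HD, 886 CPM in MPG-HD and 744 CPM in PBS, with a G-HD over PBS ratio of 0.199 (0.139 to 0.286). The ratio of G-HD over PBS was 0.406 (0.36 to 0.458) for Ccl6, 0.335 (0.29 to 0.388) for Junb, 0.415 (0.388 to 0.444) for Fth1 and 0.386 (0.334 to 0.447) for Slpi. It was 0.282 (0.19 to 0.425) for Oas1a, an antiviral oligoadenylate synthetase, 0.336 (0.231 to 0.498) for Crem, a cAMP-responsive transcription factor, and 0.226 (0.15 to 0.346) for Scimp, a membrane adaptor of immune cells. By lists, 3 of 5 chemokine and cytokine genes were at least 2-fold lower (median log2 ratio -1.30), 4 of 6 NF-kB and immediate early genes (-1.24) and 2 of 7 interferon genes (-0.73).

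The other named genes higher in G-HD members are known from glia and other tissue cells, and most of their UMIs lay in single cells. Apoe, apolipoprotein E of glia and macrophages, had 7166 CPM in G-HD, 2155 CPM in MPG-HD and 1102 CPM in PBS, but 2614 of its 3830 G-HD UMIs were in the deepest member, and without the top cell of each library its log2 ratio was 1.18. Of the G-HD UMIs of Apod, 297 of 335 were in 1 cell, as were 107 of 127 of Ptgds and 97 of 126 of Cnp. Ptgds had 0 UMIs in PBS members. Without the cell that held most of it, a G-HD member of 9603 UMIs with markers of another type, 20 UMIs of Ptgds were left in G-HD, at 38.1 CPM, which is below the 41.3 CPM that 3 UMIs make in PBS. Without the top cells the log2 ratios of Apod and Cnp were 0.78 and 0.98. Without the members that hold markers of other types, Nkg7 aside, that of Cnp turned to -0.066.

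The MPG-HD members were lower than PBS in defensins and secondary granule genes, and higher in many others. Of 566 genes compared, 21.9% were at least 2-fold higher and 5.65% at least 2-fold lower, and the median log2 ratio of all was 0.37. It was 0.13 where values were scaled without S100a8, S100a9, mitochondrial and ribosomal genes, so ratios near those values say little of a gene. Without the deepest member of each library 60 in place of 124 genes were at least 2-fold higher. Camp, the cathelicidin, had 28426 CPM in G-HD, 3225 CPM in MPG-HD and 23828 CPM in PBS, and MPG-HD was 0.135 (0.116 to 0.157) times PBS; the rule used Camp to choose members, so this too is a description. The defensins RatNP-3b, Defa5 and Np4 had 0 UMIs in MPG-HD members. With a floor of 3 UMIs in place of 0 they were 309-fold, 199-fold and 133-fold lower than in PBS. The exact upper limits of the ratio were 0.00399, 0.00621 and 0.00930. That comparison rests on 1 PBS cell, which held 1110 of 1123 UMIs of RatNP-3b, 722 of 723 of Defa5 and 480 of 483 of Np4. Orm1 and Aprt, an enzyme of purine salvage, had 26 UMIs each in PBS members and 0 in MPG-HD members. With the same floor this was 7.14-fold lower, and the exact upper limit of the ratio was 0.185. Of the secondary granule list, 5 of 8 measured genes were at least 2-fold lower, with a median log2 ratio of -1.12; Camp and Ngp of that list are genes of the rule. The tertiary granule list went the other way, at 118 UMIs per 10000 in MPG-HD and 47.2 in PBS, most of them of Slpi in MPG-HD. Of its 3 measured genes, 2 were at least 2-fold higher, Slpi and the rule gene Mmp8 (median log2 ratio 1.03).

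Among the 6 named genes higher in MPG-HD than in PBS, Slpi had the most UMIs, at 1366 CPM in G-HD, 9641 CPM in MPG-HD and 3539.7 CPM in PBS and a ratio of 2.72 (2.35 to 3.17). S100a6, a calcium-binding protein, had 82.3 CPM in G-HD, 969 CPM in MPG-HD and 55.1 CPM in PBS, in 15 of 121 G-HD, 10 of 26 MPG-HD and 3 of 25 PBS members, with a MPG-HD over PBS ratio of 17.6 (6.51 to 66.7). Stfa2, a stefin that inhibits cathepsins, had 148 CPM in G-HD, 835 CPM in MPG-HD and 193 CPM in PBS, a ratio of 4.33 (2.36 to 8.49). Clec7a (dectin-1, a receptor for fungal glucans) had 292 CPM in G-HD, 1019 CPM in MPG-HD and 275 CPM in PBS, a ratio of 3.7 (2.2 to 6.47). Prdx2 and Dut were higher as well, but 36 of 40 UMIs of Prdx2 were in the cell with Hbb, and 19 of 20 of Dut in 1 cell. Without the members that hold markers of other types, the log2 ratio of Prdx2 was -0.18, and without the deepest members that of Dut was -1.65. Il1b, at a ratio of 1.22 (1.07 to 1.38), stood below the median shift of all genes.

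Set beside G-HD, the MPG-HD members were lower in defensins and secondary granule genes and higher in chemokine and cytokine genes. Of 489 genes compared, 21.3% were at least 2-fold higher in MPG-HD and 9.82% at least 2-fold lower, with a median log2 ratio of 0.44, or 0.14 when scaled without S100a8, S100a9, mitochondrial and ribosomal genes. Camp was 0.113 (0.0979 to 0.131) times its G-HD level, and with a floor of 3 UMIs RatNP-3b, Defa5, Np4, Defa11 and Orm1 were 512-fold, 322-fold, 248-fold, 11-fold and 9.78-fold lower in summed UMIs. Orm1 was spread over 53 G-HD members, unlike the defensins, which were in 13 to 17 of them. The defensin folds are no lower bound over cells, as 1 G-HD cell held 3110 of 13716 UMIs of RatNP-3b. Of G-HD members 10.7% lay in the defensin range, below the exact upper limit of 13.2% for 0 of 26 MPG-HD members. Of the secondary granule list, 7 of 9 genes were at least 2-fold lower (median log2 ratio -1.77), whereas of the tertiary granule list 1 of 4 was at least 2-fold higher, Slpi, and 0 lower (median 0.029). In the other direction Slpi was 7.06 (6.32 to 7.88) times, S100a6 11.8 (7.82 to 17.8) times, Ccl3 5.99 (4.15 to 8.59) times, Stfa2 5.65 (3.88 to 8.16) times, Cxcl2 4.38 (3.76 to 5.09) times and Il1b 4.17 (3.74 to 4.64) times its G-HD level. All 5 measured chemokine and cytokine genes were at least 2-fold higher (median 2.13), 4 of 5 NF-kB and immediate early genes (1.20), 3 of 6 interferon genes (1.32) and 2 of 3 interleukin 1 genes (1.15).

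Because the libraries held different shares of granule-high members, the same ratios were formed over the granule-low members alone, which were 55 in G-HD, 24 in MPG-HD and 19 in PBS. Most of the differences in inflammatory genes were then smaller in the comparisons with G-HD. For MPG-HD over PBS they changed sides instead. There the interferon median went from 0.40 over all members to -0.52, and the NF-kB and immediate early median from 0.076 to -0.62. Among these cells Il1b had 9482 CPM in G-HD, 9709 CPM in MPG-HD and 15535 CPM in PBS. The ratio of MPG-HD over G-HD was 1.02 (0.916 to 1.14), against 4.17 (3.74 to 4.64) over all members. The ratio of G-HD over PBS was 0.61 (0.547 to 0.682) and that of MPG-HD over PBS 0.625 (0.55 to 0.71), so in these cells both hydrogel libraries were below PBS. In the granule-low comparison of MPG-HD with G-HD, 12.7% of 577 genes were at least 2-fold higher and 9.53% at least 2-fold lower, with a median log2 ratio of -0.059. For G-HD over PBS 11.4% of 352 genes were higher and 3.69% lower (median -0.023), and for MPG-HD over PBS 21% of 377 were higher and 4.51% lower (median -0.0092).

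Chemokines split in these cells. Cxcl2 had 4459 CPM in G-HD, 5024 CPM in MPG-HD and 6169.7 CPM in PBS, with MPG-HD over G-HD at 1.13 (0.962 to 1.32), and Ccl6 was at 0.956 (0.853 to 1.07). Ccl3 kept a difference: it had 465 CPM in G-HD, 1057 CPM in MPG-HD and 1677 CPM in PBS, and was 0.277 (0.183 to 0.418) for G-HD over PBS and 2.27 (1.51 to 3.44) for MPG-HD over G-HD. Cxcl1, a ligand of Cxcr2, had 376 CPM in G-HD, 1017 CPM in MPG-HD and 601 CPM in PBS, a ratio of 2.71 (1.74 to 4.23) for MPG-HD over G-HD. It rests on few cells, 7 of 55 in G-HD, 7 of 24 in MPG-HD and 4 of 19 in PBS, with 38, 51 and 19 UMIs. The median of the chemokine and cytokine list for MPG-HD over G-HD was 0.17, against 2.13 over all members.

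Slpi and S100a6 remained higher in MPG-HD among granule-low members. Slpi had 4845 CPM in G-HD, 10925 CPM in MPG-HD and 7815 CPM in PBS, which was 2.25 (1.99 to 2.55) for MPG-HD over G-HD, 1.4 (1.2 to 1.63) for MPG-HD over PBS and 0.62 (0.531 to 0.725) for G-HD over PBS. S100a6 had 415 CPM in G-HD, 1156 CPM in MPG-HD and 127 CPM in PBS, from 42, 58 and 4 UMIs, a ratio of 9.14 (3.38 to 34.7) for MPG-HD over PBS and of 2.78 (1.84 to 4.25) for MPG-HD over G-HD. Mmp8 remained higher in G-HD, at 3.83 (2.3 to 6.83) over PBS, and is also a gene of the rule. Csf3r went the other way, with 336 CPM in G-HD, 199 CPM in MPG-HD and 823 CPM in PBS, and G-HD over PBS at 0.409 (0.238 to 0.709) and MPG-HD over PBS at 0.242 (0.104 to 0.519); its transcripts are few and the rule used it.

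Among granule-low members the medians of the interferon and class I lists were lower in MPG-HD than in G-HD, where over all members they had been higher. Isg15, a ubiquitin-like modifier, had 3510.1 CPM in G-HD, 1774 CPM in MPG-HD and 3037 CPM in PBS, a ratio of MPG-HD over G-HD of 0.505 (0.396 to 0.639) against 2.00 (1.57 to 2.52) over all members. Ifit3 was 0.772 (0.646 to 0.921) and RT1-A2 0.582 (0.456 to 0.738), and Nfkbia was 0.642 (0.538 to 0.764). The list medians for MPG-HD over G-HD were -0.44 for interferon genes and -0.76 for class I genes. RT1-A2 was 1.79 (1.34 to 2.43) for G-HD over PBS, and the class I median of that pair was 0.39, while the interferon median was 0.10. Camp itself, with 35, 14 and 4 UMIs in these cells, was limited from above by the cut.

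**Figure D5:**
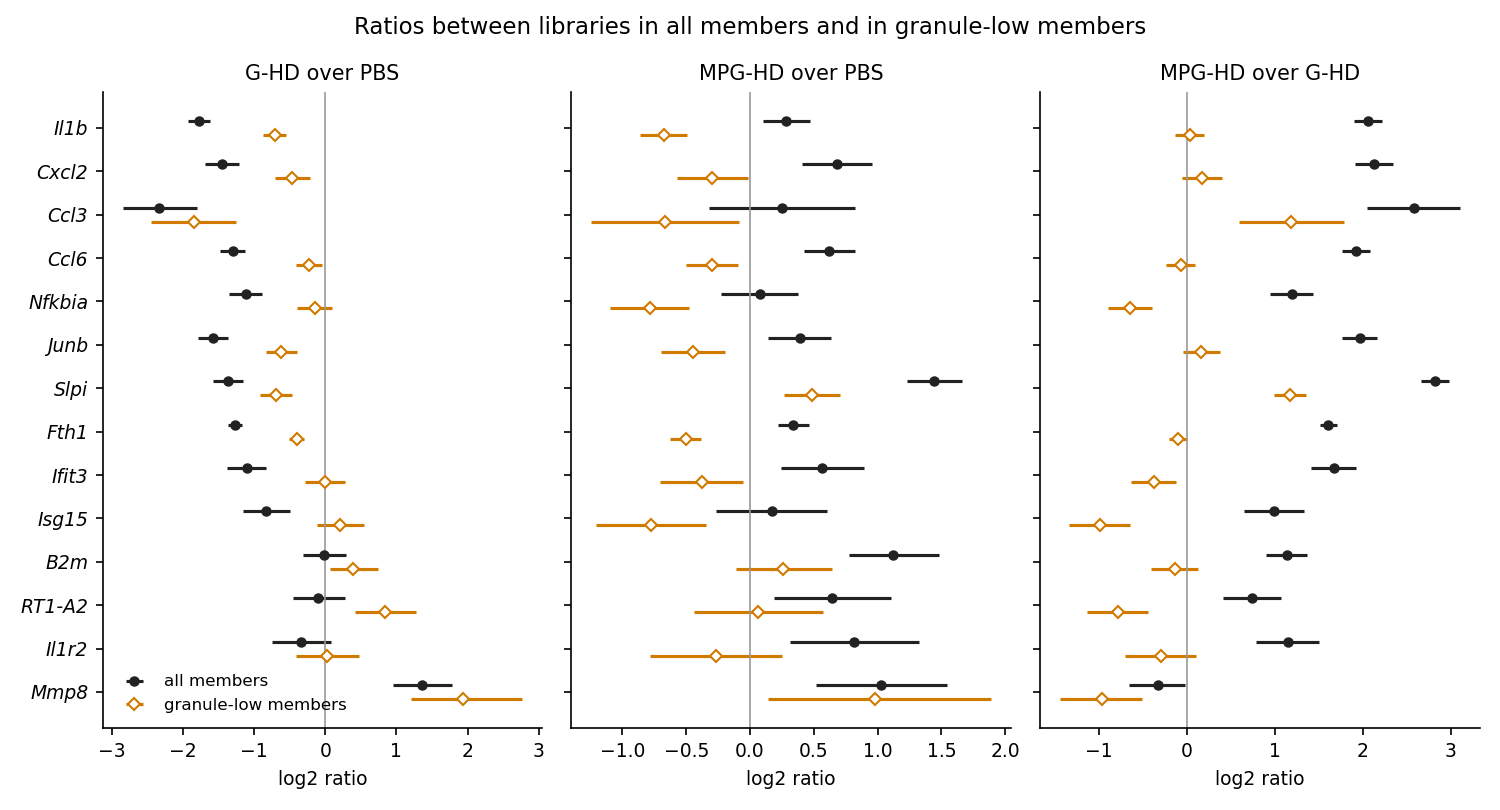
Log2 ratios (x axis) of 14 genes for G-HD over PBS, MPG-HD over PBS and MPG-HD over G-HD, over all members (filled circles) and over granule-low members (open diamonds), with exact 95% intervals for counting error. In the MPG-HD over G-HD panel most genes lie to the right of 0 over all members, and around or left of 0 over granule-low members, with Slpi and Ccl3 still to the right.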

How the data were processed

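Cells from 1 library per treatment were read from deposited 10x 3′ (kit v3) matrices of UMI counts, raw and not normalized per the file headers. As software, Cell Ranger 3.0.2 appears in the submitters' processing notes, beside the builds mm10 and GRCm38 (both of mouse), the matrix header gives 3.1.0, and features carry rat Ensembl IDs; the rat build is not given in the sources used here. The libraries held 26289759 UMIs in 2619 barcodes (G-HD), 23988263 in 2339 (MPG-HD) and 16081082 in 1513 (PBS). Filters and the membership rule are given with the results; 2347, 2091 and 1377 cells passed. No doublet caller was run; alternatives left out members with 3 UMIs of another type's markers or the 5% with most UMIs. UMIs were summed over members and scaled to CPM. Shares have Clopper-Pearson intervals, sums Poisson intervals and ratios exact conditional 95% intervals, from Python 3.11.15, NumPy 2.4.6, SciPy 1.17.1, pandas 2.3.3 and Matplotlib 3.10.9, checked on simulated counts. Members, gene lists, ranges and motifs were chosen with earlier results of these data known. Named genes were the 13 rule genes, the lists, the 20 with the highest lower bound of members over other cells (50 UMIs or more) and, per pair of libraries, up to 10 (G-HD over PBS) or 6 genes each way past 2-fold that kept direction with equal weights and without top cells; genes named from ranges were chosen after their values were seen. Some genes are not reported here. Promoters came from RefSeq (GRCr8).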

Additional observations from a re-analysis of the deposited data

How the results depend on the processing

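The main limits are the 1 library per treatment and the 26 and 25 members of MPG-HD and PBS. No paired analysis was possible because each group has 1 library. Alternatives that counted Nkg7 out, dropped the deepest member of each library or recomputed ranges were chosen after seeing the data. The ratios of member shares of filtered cells kept their direction under all 10 alternatives run. The granule-high share of G-HD members was 67.7% under a stricter cell filter (500 genes, 10% mitochondrial UMIs), against 54.5%; over all 13 alternatives it ran from 48.8% to 67.7%, that of MPG-HD from 4.17% to 23.1% (the highest with a granule cut of 10) and that of PBS from 17.4% to 31.6%. For G-HD over PBS, 46 genes were at least 2-fold higher and 33 lower: 83 were higher without the top member of each gene, 10 higher and 12 lower with members thinned to 1000 UMIs, 13 lower in granule-low members, 22 higher without members holding other markers, 129 and 75 at a minimum of 5 expected UMIs, and 19 and 18 at 20. For MPG-HD over PBS, 124 were higher and 32 lower: 68 were higher with equal weights, 32 higher and 14 lower when thinned, 79 and 17 in granule-low members, 42 higher without members holding other markers (54 with Nkg7 not counted), 82 higher scaled without S100a8, S100a9, mitochondrial and ribosomal genes, 60 higher without the deepest members, 212 and 68 at a minimum of 5, and 71 and 16 at 20. For MPG-HD over G-HD, 104 were higher and 48 lower: 44 were higher with equal weights, 76 lower without top members, 32 higher and 19 lower when thinned, 62 and 31 without members holding other markers, 52 higher under that scaling, 186 and 105 at a minimum of 5, and 65 higher at 20. Fewer cells or UMIs entered the thinned, granule-low and marker settings and fewer genes the minimum of 20; the cause was otherwise not tested. Among log2 ratios of at least 2-fold over all members, that of Cnp for G-HD over PBS turned without members holding other markers and with Nkg7 not counted (-0.066). For MPG-HD over PBS those that turned were Camp (1.14 in granule-low members), Prdx2 (-0.18 without members holding other markers, -0.046 with Nkg7 not counted) and Dut (-1.65 without the deepest members). For MPG-HD over G-HD they turned in granule-low members for Il1r2 (-0.29), Fcgr2a (-0.21), Ccl6 (-0.065), Nfkbia (-0.64), Fth1 (-0.10), Ifit3 (-0.37), Ifit1bl (-0.29) and B2m (-0.13), and for the medians of the interferon (-0.44), interleukin 1 (-0.10), NF-kB (-0.16) and glucocorticoid (-0.39) lists. Ratios under 2-fold over all members also changed sign, 89 values of genes and 61 of list medians. For MPG-HD over G-HD they included Isg15 (1.00 over all members, -0.98 in granule-low members), RT1-A2 (0.75 and -0.78) and the class I (0.75 and -0.76) and receptor (0.62 and -0.23) medians. For MPG-HD over PBS they included the interferon (0.40 and -0.52), interleukin 1 (0.55 and -0.47) and chemokine (0.62 and -0.30) medians. Of all values of named genes between libraries, 626 stayed within their counting interval or side, 423 moved and 13 turned from at least 2-fold; of list medians 445, 78 and 4.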

Other observations

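Cells with primary granule genes were also found outside the rule. In G-HD, 11 filtered cells that were not members held 165 UMIs of Mpo (myeloperoxidase) and 7 held 279 UMIs of Elane (neutrophil elastase), against 4 members with 25 UMIs of Mpo and 12 members with 18 UMIs of Elane. In MPG-HD, Mpo had 0 UMIs in all filtered cells, and Elane had 1 UMI outside the members and 4 UMIs in them. In PBS, Mpo had 0 UMIs in all filtered cells, and Elane had 2 UMIs in members and 0 outside them. The rule asks for S100a8 and S100a9 and for later granulocyte genes, and the cells with most Mpo and Elane did not meet it.

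Further lists were measured in the members. Of the hypoxia and glycolysis list, 0 of 6 measured genes were 2-fold apart for G-HD over PBS (median log2 ratio -0.22) and 0 of 6 for MPG-HD over G-HD (0.24), and for MPG-HD over PBS 1 of 7 was higher and 1 lower (0.37). The heat shock list had 0 of 3 for G-HD over PBS (-0.20), 1 of 3 higher for MPG-HD over PBS (0.94) and 1 of 3 higher for MPG-HD over G-HD (0.96), beside medians of all genes of 0.37 and 0.44 for the MPG-HD pairs. Dnaja1, a chaperone partner, had 488 CPM in G-HD, 1504 CPM in MPG-HD and 785 CPM in PBS. Of the oxidative burst list Cybb stood apart, at 466 CPM in G-HD, 50.1 CPM in MPG-HD and 427 CPM in PBS, while Cyba, its partner subunit, had 1822 CPM in G-HD, 1203 CPM in MPG-HD and 1625 CPM in PBS. The metallothionein gene Mt1 had 48.6 CPM in G-HD, 434 CPM in MPG-HD and 124 CPM in PBS, from 26, 26 and 9 UMIs. Class II genes were near 0, with 0.318 UMIs per 10000 in G-HD members, 0.668 in MPG-HD members and 0.138 in PBS members.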
